A study of Mus musculus with 48 samples.

Results

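Heat shock proteins and chaperones were described through 10 genes, taken by symbol from the deposited tables, 10 of 54331 genes in all. They are Hspa8, Dnaja1, Dnajb1, Hsp90aa1 and Hsp90ab1 of the cytosol, Hspa5 and Hsp90b1 of the endoplasmic reticulum (ER), and Hspa9, Hspd1 and Hspe1 of mitochondria. All 10 passed the filter on low counts in every comparison. Chaperones bind unfolded proteins and help them fold. An Hsp70 holds short hydrophobic stretches in a cycle driven by ATP, J-domain proteins such as Dnaja1 and Dnajb1 load its clients and start ATP hydrolysis, and Hsp90 finishes the folding of kinases, receptors and other signalling proteins. ER and mitochondria have their own Hsp70, Hsp90 or chaperonin, and in neurons these proteins also keep axonal and synaptic proteins in working shape.

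The 48 mouse libraries, in 15 groups, profile axons of retinal ganglion cells (RGC), whose cell bodies lie in the eye and whose axons end in the brain, in superior colliculus (SC) and lateral geniculate nucleus (LGN). Libraries called EU hold RNA that carried ethynyl uridine, a label injected into the eye. TRAP libraries (axon-TRAP) hold ribosome-bound RNA. Wild-type EU groups of SC were P10 (n = 3), P10 with a 4-day chase (n = 3), P14 (n = 5) and 8 weeks (n = 3), and LGN was sampled at P14 (n = 2). Wild-type TRAP groups were SC at P10 (n = 3) and P14 (n = 5) and LGN at P14 (n = 3). Eye groups, all P14 and wild type unless said, were immunopanned RGC without EU (n = 3), immunopanned RGC with EU capture (n = 3), FACS cells (n = 3) and FACS cells labelled fmr1ko (n = 3). SC EU and SC TRAP libraries labelled fmr1ko (n = 3 each) were P14. The SC EU libraries of genotype sarm1ko (n = 3) are labelled as axotomized and as P14 with a chase of 7 days, so genotype, axotomy, chase and age at collection cannot be told apart there. All other groups are labelled as naïve to axotomy. The promoter or Cre line behind the ribosome tag, and the cells that a sort took, are not stated in the labels. The EU protocol pools 3 animals, and the labels do not say that libraries of a group are separate animals, so p-values measure only the spread between libraries. In bulk RNA, fewer cells of a type and less RNA per cell cannot be told apart.

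Library totals ran from 2558140 to 48263706 estimated counts. Summed TPM (a level per transcript length, scaled to a fixed library total) of 16 RGC markers ran from 30.6 to 436 in the 12 eye libraries and from 2989 to 4741 in wild-type P14 SC EU. Single markers differed in level: in P14 SC EU Rbpms had 0.369 to 44.9 TPM and Nefl 112 to 444, against 0 to 2.30 and 9.97 to 62.9 in immunopanned EU. Oligodendrocyte markers summed to 6770 to 10917 TPM in P14 SC EU, so these sums do not show how much of its RNA was of RGC. Rod markers, 14 genes of photoreceptors, summed to 83320.1 to 166807 in FACS cells, 4649 to 98067 in immunopanned EU and 95.4 to 525 in P14 SC EU. The library labelled SC TRAP fmr1ko replicate 2 went against its label. It had 90965 TPM of rod markers and 33.7 of 15 oligodendrocyte markers, against 348 and 635 of rod and 10494 and 5699.7 of oligodendrocyte markers in replicates 1 and 3. Fmr1 itself was listed in the libraries labelled fmr1ko at 2.27 to 15.4 TPM in SC EU, against 0 to 6.99 in wild type, and its ranges also overlapped wild type in SC TRAP and FACS cells, so the fmr1ko label is used only as a label. Immunopanned replicate 1 without EU also stood apart, with 102 TPM over the 10 chaperones against 1465 and 1602 in replicates 2 and 3.

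Several chaperones end in a short signal of their compartment or partners. The last 30 coding bases of the longest coding transcript, from GENCODE M21 on GRCm38, are shown for 5 members because they mark the compartments by which the results are ordered. Capitals mark the last 4 codons before the stop codon. Hspa8, Hsp90aa1 and Hsp90ab1 end in EEVD, the motif bound by cochaperones with TPR domains.
Hspa8: tcttcaggccccaccattGAAGAGGTGGAT
Hsp90aa1: gacgacacatcacgcatgGAAGAAGTAGAC
Hsp90ab1: gaggatgcctcgcgcatgGAAGAGGTGGAT
Hspa5 and Hsp90b1 end in KDEL, the signal that returns proteins to the ER.
Hspa5: gaagaggatacatcagaaAAAGATGAGTTG
Hsp90b1: gaaaaggaatctacagagAAGGATGAATTG
The capitals of Hspa8 and Hsp90ab1 are the same 12 bases, while Hsp90aa1 spells the same residues with partly different codons.

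Promoter windows of 250 bases before to 50 after a RefSeq start (build GRCm38.p6) were given for 6 of the 10 genes: Hspd1, Hspe1, Hspa5, Hsp90b1, Dnaja1 and Dnajb1. Both strands were searched for 2 elements, and each match is printed as 30 bases read along the gene with the match in capitals. The ER stress response element, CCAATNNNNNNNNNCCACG, is the site of the unfolded protein response in promoters of ER chaperones. It was in 0.119% of 32817 windows, the 2 ER members among them, which are shown for that reason. In Hspa5 it lay in chr2:34772020-34772049 (plus strand), a stretch whose capitals begin 65 bases before the start. In Hsp90b1 (minus strand) it lay in chr10:86705632-86705661, with capitals from 212 bases before the start, and in reverse in chr10:86705527-86705556, with capitals from 107 bases before it.
Hspa5: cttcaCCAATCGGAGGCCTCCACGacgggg
Hsp90b1, first: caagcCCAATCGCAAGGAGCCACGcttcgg
Hsp90b1, second: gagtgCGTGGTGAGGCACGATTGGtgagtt
The heat shock element, GAANNTTCNNGAA, is bound by heat shock factors and was in 0.603% of windows. Hspd1 (chr1:55077835-55088243, minus strand) and Hspe1 (chr1:55088132-55091307, plus strand) lie head to head. The Hspe1 window and the Hspd1 window chr1:55087883-55088182 share 2 overlapping matches in chr1:55088053-55088082. A further Hspd1 window, chr1:55088194-55088493, of another start, had no match.
Hspe1: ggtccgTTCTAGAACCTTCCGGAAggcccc
Neither element was found in the windows of Dnaja1 and Dnajb1. A match is a description of letters only.

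Hspd1 and Hspe1 overlap at their 5′ ends on opposite strands, and the strand setting of the quantification was not stated, so reads in the overlap are uncertain. Near-identical copies add to this. Hspe1 has 6 named pseudogenes in the table, which took up to 41.6% of the summed TPM of gene and copies in a library. For Hspd1, Dnaja1 and Hspa9 the named pseudogenes took at most 1.24%, 3.40% and 0.0972%. The median was 0% for all 4.

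Together the 10 genes made up 0.0102 to 1.06% of a library's TPM (median 0.506%, 48 libraries). Cytosolic members led. By mean TPM over all libraries, Hsp90aa1 ranked 44 of 54331 genes (2290.3 TPM), Hspa8 ranked 95 (1295 TPM) and Hsp90ab1 ranked 129 (1044 TPM). The other 7 had means of 39.6 (Hspa9) to 136 TPM (Hspe1). The plot of levels by library shows wide spreads within groups. With the 15 groups ordered by median, 11 to 14 of the 14 pairs of neighbouring groups overlapped in range, so a difference in rank of 1 is mostly within the spread.

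**Figure D1:**
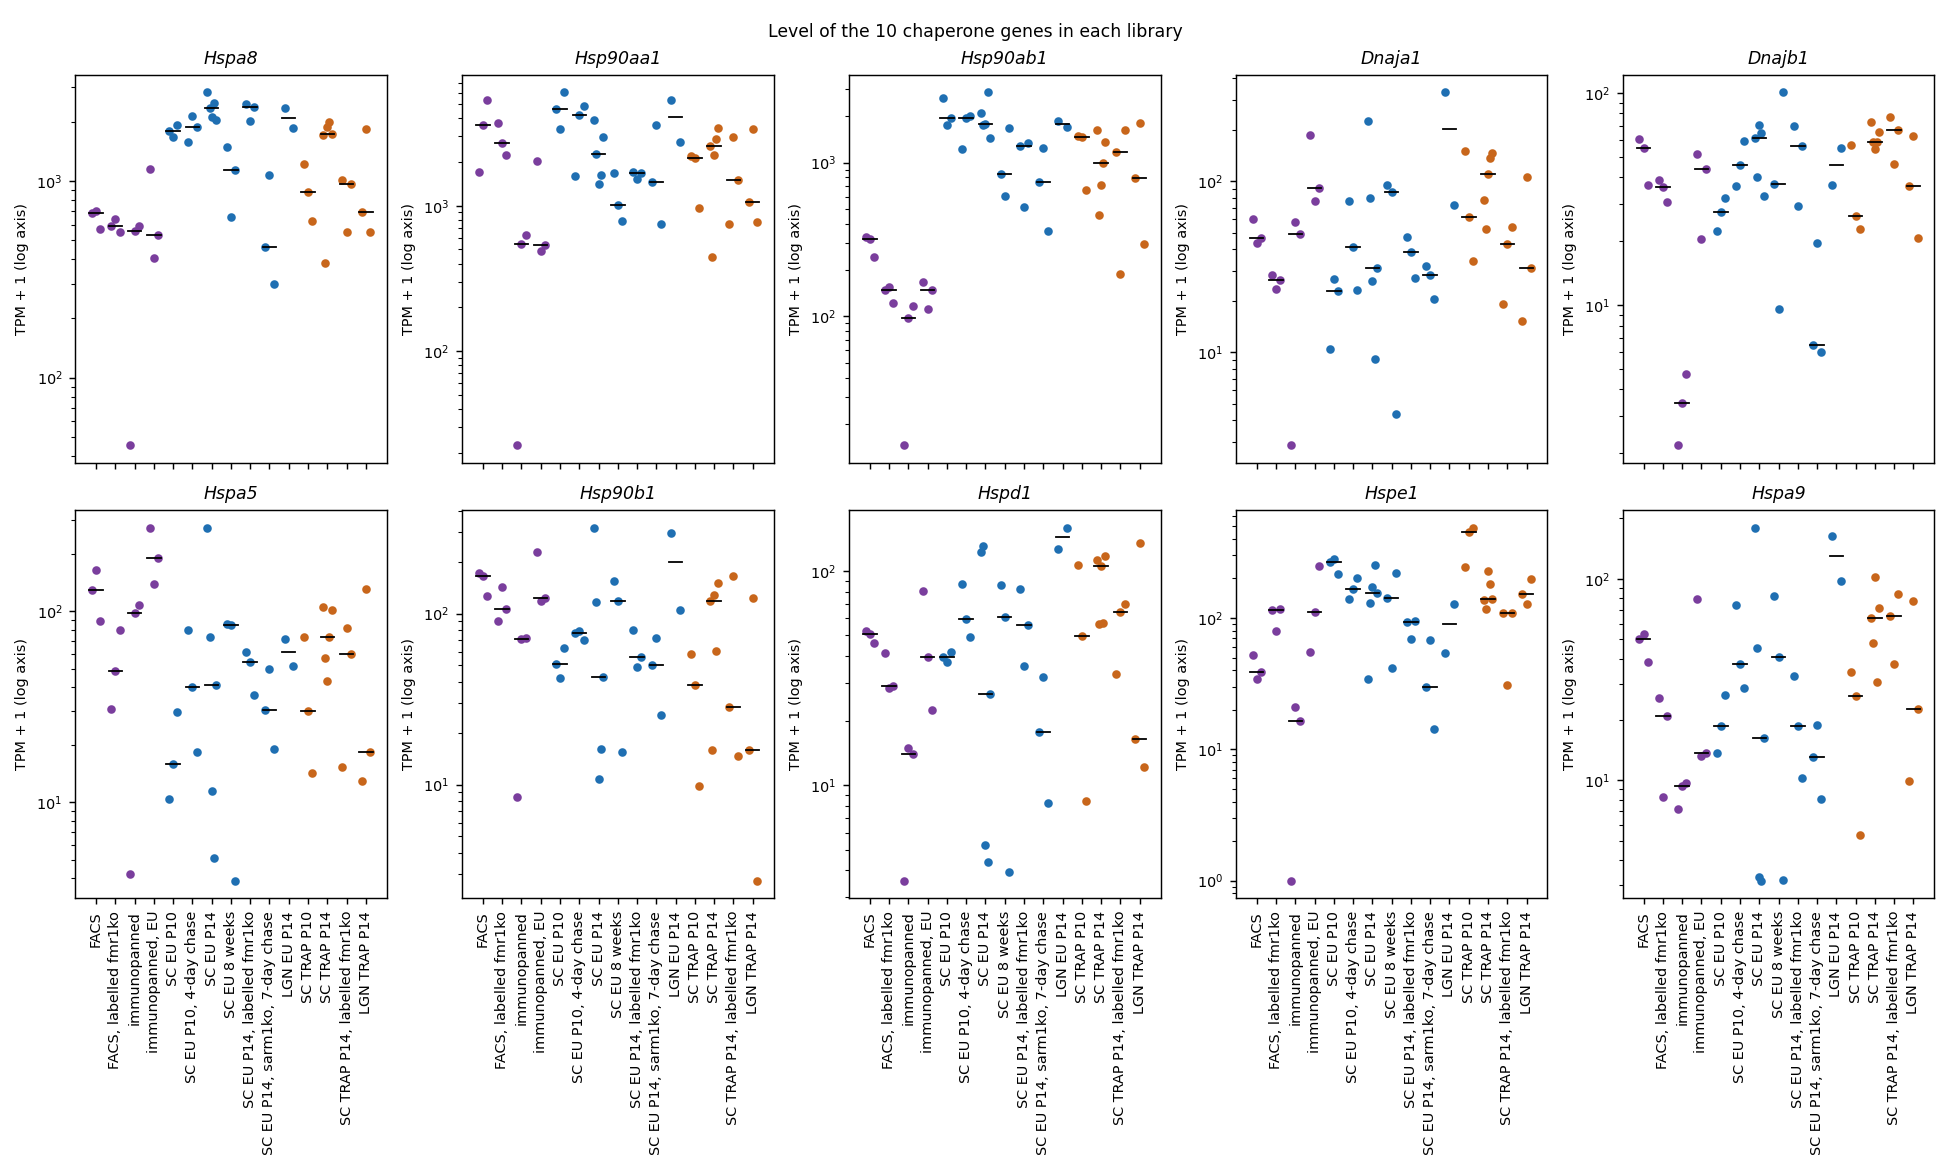
TPM + 1 on a log axis of the 10 chaperone genes in each of the 48 libraries, one panel per gene. Points are libraries, coloured by eye cells (purple), EU (blue) and TRAP (orange), and bars are group medians; Hsp90ab1 is low in all eye groups, and the lower points of Hspa5, Hspd1 and Hspa9 in SC EU at P14 and 8 weeks lie far under their group's other libraries.

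Hspa8 (chr9:40800984-40810087, plus strand) encodes the constitutive cytosolic Hsp70, which also strips clathrin from vesicles. Median TPM of Hspa8 in eye cells was 691 in FACS cells, 587 in FACS cells labelled fmr1ko, 555 in immunopanned RGC and 531 in immunopanned RGC with EU. In SC EU libraries it was 1802 at P10, 1893 after the 4-day chase, 2349 at P14, 1134 at 8 weeks, 2380.1 under the fmr1ko label and 459.9 in sarm1ko, and in LGN EU 2103. In TRAP it was 883 at P10, 1744 at P14, 969.8 under the fmr1ko label and 695 in LGN. The EU groups of SC before 8 weeks, sarm1ko apart, ran from 1584 to 2831 TPM, above every eye library (highest 1148 TPM). Those groups overlap LGN EU (1861 to 2345 TPM). Ordered by median, 14 of 14 pairs of neighbouring groups overlapped. The sarm1ko libraries, at 459.9, 1078 and 299.5 TPM, lay below all 5 wild-type P14 libraries (2040.4 to 2831 TPM). Among TRAP groups the ranges overlap, from 383 to 2007 TPM at P14 in SC to 552 to 1829 in LGN.

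Dnaja1 (chr4:40722150-40737149, plus strand) is a farnesylated J-domain protein of the cytosol. Median TPM of Dnaja1 in eye cells was 45.9 in FACS cells, 25.3 in FACS cells labelled fmr1ko, 48.3 in immunopanned RGC and 90.7 in immunopanned RGC with EU. Its median in SC EU was 21.9 at P10, 40.1 after the 4-day chase, 30.2 at P14, 86.0 at 8 weeks, 37.6 under the fmr1ko label and 27.2 in sarm1ko, and in LGN EU 201. TRAP groups of SC had 60.8 at P10, 109 at P14, 41.9 under the fmr1ko label, and LGN 30.3. Ordered by median, 14 of 14 pairs of neighbouring groups overlapped. P14 SC EU had 224, 79.4, 25.3, 8.17 and 30.2 TPM in replicates 1 to 5, and SC EU at 8 weeks had 94.0, 86.0 and 3.37. P14 SC TRAP, at 51.9 to 145 TPM, spanned a narrower range.

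Dnajb1 (chr8:83608193-83612653, plus strand) is the J-domain partner classed as Hsp40, and is known as a heat-inducible gene. Median TPM of Dnajb1 in eye cells was 54.3 in FACS cells, 34.9 in FACS cells labelled fmr1ko, 2.45 in immunopanned RGC and 42.7 in immunopanned RGC with EU. In SC EU libraries it was 26.5 at P10, 44.8 after the 4-day chase, 60.2 at P14, 36.3 at 8 weeks, 55.3 under the fmr1ko label and 5.48 in sarm1ko, and in LGN EU 44.9. In TRAP it was 25.2 at P10, 57.9 at P14, 66.0 under the fmr1ko label and 35.3 in LGN. Immunopanned RGC without EU had 1.18, 2.45 and 3.70 TPM and sarm1ko 5.48, 18.6 and 4.97, the groups with the lowest medians. Ordered by median, 12 of 14 pairs of neighbouring groups overlapped. P14 SC TRAP, at 53.2 to 72.0 TPM, and P14 SC EU, at 31.7 to 69.8, overlap.

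Hsp90ab1 (chr17:45567775-45573271, minus strand) is the constitutive cytosolic Hsp90, and Hsp90aa1 (chr12:110690605-110702728, minus strand) the more inducible one. Median TPM of Hsp90ab1 in eye cells was 316 in FACS cells, 148 in FACS cells labelled fmr1ko, 96.7 in immunopanned RGC and 148 in immunopanned RGC with EU. Its median in SC EU was 1957 at P10, 1956 after the 4-day chase, 1785 at P14, 844 at 8 weeks, 1282 under the fmr1ko label and 744 in sarm1ko, and in LGN EU 1773. TRAP groups of SC had 1456 at P10, 986 at P14, 1164 under the fmr1ko label, and LGN 791. The 12 eye libraries ran from 13.5 to 327 TPM and the 36 of SC and LGN from 188 to 2866, the lowest of them SC TRAP fmr1ko replicate 2, the library that went against its label. Ordered by median, 11 of 14 pairs of neighbouring groups overlapped. Median TPM of Hsp90aa1 in eye cells was 3585 in FACS cells, 2689 in FACS cells labelled fmr1ko, 544 in immunopanned RGC and 532 in immunopanned RGC with EU. In SC EU libraries it was 4659 at P10, 4191 after the 4-day chase, 2277 at P14, 1016 at 8 weeks, 1674 under the fmr1ko label and 1453 in sarm1ko, and in LGN EU 4055. In TRAP it was 2141 at P10, 2579 at P14, 1494 under the fmr1ko label and 1067 in LGN. Here eye libraries (21.4 to 5344 TPM) and SC and LGN libraries (439 to 6043 TPM) overlap. Ordered by median, 13 of 14 pairs of neighbouring groups overlapped.

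The balance of the cytosolic Hsp90 genes differed between eye and brain target libraries. In estimated counts, Hsp90aa1 to Hsp90ab1 was 4.74, 7.86 and 12.7 in FACS cells and 14.6, 5.46 and 3.73 in immunopanned EU, against 0.895, 0.468, 0.225, 0.187 and 0.607 in P14 SC EU replicates 1 to 5 and 0.636, 0.340, 1.37, 0.896 and 0.869 in P14 SC TRAP replicates 1 to 5. The ratio was above 3 in 11 of 12 eye libraries and in 1 of 36 libraries of SC and LGN. The exceptions were the libraries named above as standing apart: immunopanned replicate 1 without EU (1.02) and SC TRAP fmr1ko replicate 2 (12.1). Without them the eye libraries ran from 3.73 to 14.6 and those of SC and LGN from 0.146 to 1.47, with no overlap. Rod markers (high in the eye) and oligodendrocyte markers (high in SC and LGN) move with this contrast, and their part in it was not tested.

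The same ratio in TPM was larger, with a median of 1.81 against 0.808 in counts over the SC and LGN libraries and 8.48 against 7.22 over the eye libraries, and in SC and LGN it was above 3 in 3 of 36 libraries. Counts and TPM of a gene together imply the length of the transcripts to which its reads were assigned. On a scale set by the median gene of each library, Hsp90aa1 reads implied 3062 to 3815 bases in immunopanned EU and 915 to 1312 bases in P14 SC EU, where the longest coding transcript has 3281 bases. Intermediate lengths occurred in both tissues: SC EU at 8 weeks had 1000.0 to 2116 bases, and FACS cells 1583 to 2958. Other members moved less, for example Hspa8 from 2229 to 2871 bases and Hsp90b1 from 2919 to 3953 over the 48 libraries, while Dnaja1 ran from 1835 to 5169.9. No transcript-level values were used, so which transcripts the Hsp90aa1 reads came from was not tested. Between P14 SC EU and immunopanned EU Hsp90aa1 was -1.98 in counts and 1.22 in TPM, both on the log2 scale.

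**Figure D2:**
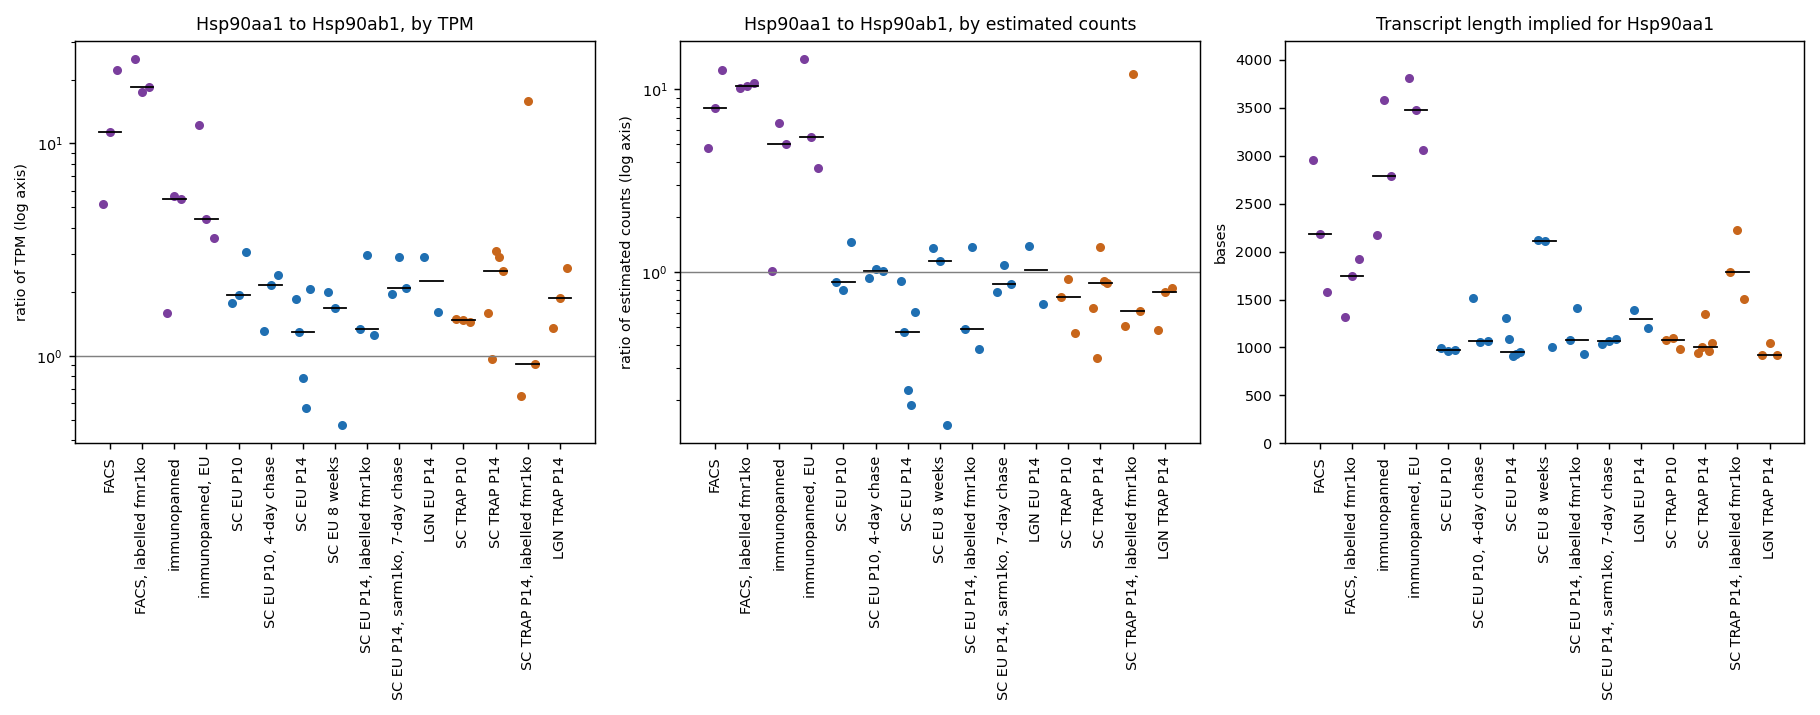
Ratio of Hsp90aa1 to Hsp90ab1 in each library by TPM (left) and by estimated counts (middle), both on log axes with a line at 1, and the transcript length that counts and TPM imply for Hsp90aa1 in bases (right). Points are libraries and bars group medians; eye groups (purple) lie above SC and LGN groups (blue EU, orange TRAP) in both ratios except for 1 library on each side, and implied lengths in SC and LGN groups lie mostly below those of the eye.

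Hspa5 (chr2:34771970-34777547, plus strand), also called BiP, is the Hsp70 of the ER. Median TPM of Hspa5 in eye cells was 128 in FACS cells, 48.01 in FACS cells labelled fmr1ko, 96.7 in immunopanned RGC and 189 in immunopanned RGC with EU. In SC EU libraries it was 14.8 at P10, 39.3 after the 4-day chase, 40.1 at P14, 84.4 at 8 weeks, 53.3 under the fmr1ko label and 29.6 in sarm1ko, and in LGN EU 60.6. In TRAP it was 29.1 at P10, 72.4 at P14, 58.8 under the fmr1ko label and 17.4 in LGN. Immunopanned EU, at 274, 139 and 189 TPM, had the highest median of the 15 groups. P14 SC EU spread from 4.09 to 274 TPM and SC EU at 8 weeks from 2.89 to 85.2, and for this gene 14 of 14 pairs of neighbouring groups overlapped. Hsp90b1 (chr10:86690209-86705509, minus strand), also called GRP94, is the Hsp90 of the ER. Median TPM of Hsp90b1 in eye cells was 164 in FACS cells, 105 in FACS cells labelled fmr1ko, 70.2 in immunopanned RGC and 123 in immunopanned RGC with EU. Its median in SC EU was 49.9 at P10, 75.9 after the 4-day chase, 41.5 at P14, 118 at 8 weeks, 54.7 under the fmr1ko label and 49.3 in sarm1ko, and in LGN EU 199. TRAP groups of SC had 37.0 at P10, 118 at P14, 27.3 under the fmr1ko label, and LGN 14.8. Within libraries, Hsp90b1 to Hspa5 in TPM was 0.831, 0.841 and 0.650 in immunopanned EU and 5.31, 2.75 and 2.17 in P10 SC EU, which do not overlap. P14 SC EU, at 1.16, 1.61, 0.932, 3.69 and 1.04, overlaps the latter, and all of its 5 values lie above those of immunopanned EU.

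Hspa9, the mitochondrial Hsp70 also called mortalin, pulls proteins through the inner membrane. Median TPM of Hspa9 in eye cells was 49.3 in FACS cells, 19.9 in FACS cells labelled fmr1ko, 8.32 in immunopanned RGC and 12.7 in immunopanned RGC with EU. Its median in SC EU was 17.5 at P10, 36.7 after the 4-day chase, 15.3 at P14, 40.0 at 8 weeks, 17.6 under the fmr1ko label and 12.04 in sarm1ko, and in LGN EU 129. TRAP groups of SC had 25.2 at P10, 62.8 at P14, 64.5 under the fmr1ko label, and LGN 21.7. P14 SC EU had 179, 44.3, 2.29, 2.17 and 15.3 TPM in replicates 1 to 5, a group wider than any other for this gene. Hspd1 encodes Hsp60, the mitochondrial chaperonin. Median TPM of Hspd1 in eye cells was 50.0 in FACS cells, 28.1 in FACS cells labelled fmr1ko, 13.0 in immunopanned RGC and 38.8 in immunopanned RGC with EU. In SC EU libraries it was 38.6 at P10, 58.9 after the 4-day chase, 25.7 at P14, 60.0 at 8 weeks, 54.8 under the fmr1ko label and 16.6 in sarm1ko, and in LGN EU 142. In TRAP it was 48.5 at P10, 104 at P14, 63.2 under the fmr1ko label and 15.5 in LGN. Hspd1 in P14 SC EU replicates 1 to 5 was 121, 129.5, 4.24, 3.39 and 25.7 TPM, again with replicates 3 and 4 lowest. Hspe1 encodes Hsp10, the lid of the Hsp60 chamber. Median TPM of Hspe1 in eye cells was 38.1 in FACS cells, 114 in FACS cells labelled fmr1ko, 15.4 in immunopanned RGC and 109.9 in immunopanned RGC with EU. Its median in SC EU was 267 at P10, 167 after the 4-day chase, 155 at P14, 142 at 8 weeks, 91.5 under the fmr1ko label and 29.1 in sarm1ko, and in LGN EU 89.6. TRAP groups of SC had 450.0 at P10, 139 at P14, 108 under the fmr1ko label, and LGN 150.3. P10 SC TRAP, at 245, 450.0 and 487 TPM, and P10 SC EU, at 267, 282 and 215, had the highest medians and overlap. Hspe1 to Hspd1 in TPM was 0.274, 1.0, 40.3, 74.4 and 6.03 in P14 SC EU replicates 1 to 5 and 1.0, 0.672 and 0.843 in FACS cells.

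Base composition moved with these levels. Each library's Spearman correlation of TPM with transcript GC content, over 8315 genes with a mean TPM of at least 10, ran from -0.35 to 0.48. In P14 SC EU replicates 1 to 5 it was -0.12, 0.23, 0.41, 0.43 and 0.22, at 8 weeks -0.17, -0.35 and 0.42, and in immunopanned EU -0.09, -0.20 and -0.14. The members fall into 2 sets by GC content. Dnaja1, Hsp90aa1, Hsp90b1, Hspa5, Hspa9 and Hspd1 have 41.2 to 46.8%, and Hsp90ab1, Hspa8, Hspe1 and Dnajb1 51.0 to 52.7%. The mean log2(TPM + 1) of the lower-GC 6 minus that of the higher-GC 4 was 0.05, -1.40, -4.48, -5.19 and -2.44 in P14 SC EU replicates 1 to 5. Over the 48 libraries it went with the GC correlation (Pearson -0.77, Spearman -0.80, a description over libraries that share groups and capture). Each comparison below was therefore fitted a further time with a GC trend removed from every library, and the values of the named members stand beside the others. Whether base composition accounts for a difference was not tested beyond that fit.

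**Figure D3:**
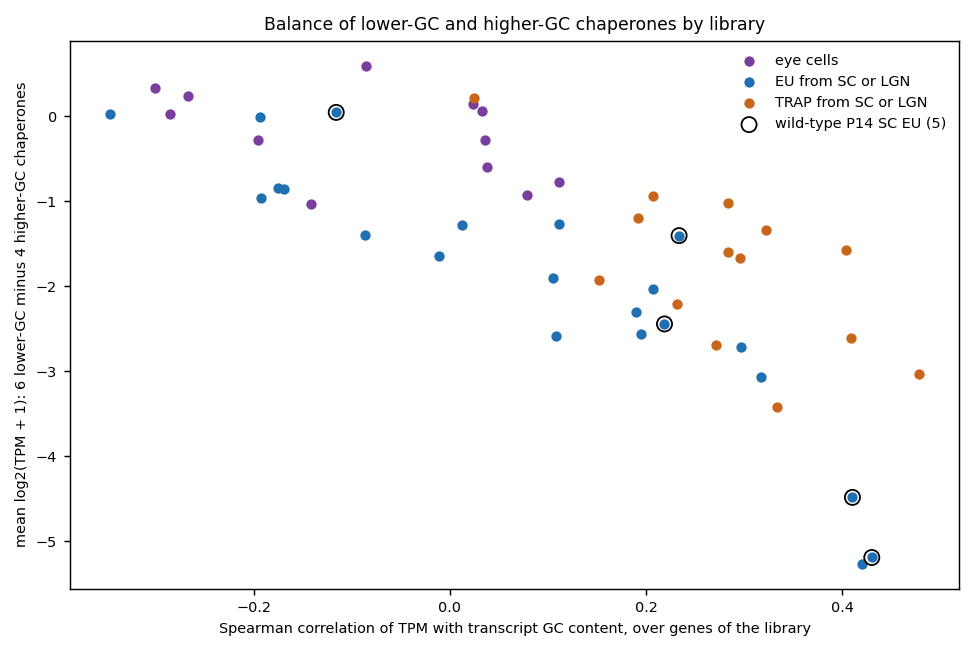
For each of the 48 libraries, the Spearman correlation of TPM with transcript GC content over its genes (x) against the mean log2(TPM + 1) of the 6 lower-GC chaperones minus that of the 4 higher-GC chaperones (y). Circled points are the 5 wild-type P14 SC EU libraries, of which replicates 3 and 4 lie at the lower right.

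Members were compared with the deposited estimated counts in edgeR's quasi-likelihood test, with p-values adjusted by Benjamini-Hochberg over all genes tested, and a call means an adjusted p under 0.05. The genes named from a list are the called ones with the smallest adjusted p, up to 3 a list, and all lists were chosen with earlier results of these data known. Levels in these comparisons are normalised CPM (counts scaled to a fixed library total) and differences are log2 fold changes. Wild-type P14 SC replicates 3 to 5, whose label codes match those of the other SC groups, enter all comparisons except SC with LGN, which uses replicates 1 and 2.

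Axonal against somatic labelled RNA was compared as P14 SC EU (n = 3) against immunopanned EU (n = 3). Axon and soma are used here only as names of these preparations, whose markers of other cells differed as given below. In counts, Hspa5 and Hsp90b1 of the ER, Hspa9 and Hspd1 of mitochondria, and the cytosolic Dnaja1 and Hsp90aa1 were lower in SC, and Hsp90ab1 was higher. In TPM the direction of Hsp90aa1 was the reverse, as given above. In all, 1 member was called higher and 6 lower, where 11.0% and 11.4% of 15540 genes were called. The median log2 fold change was -2.56 over the members and 0.11 over all genes. Libraries of the 2 groups did not overlap, in either direction, in 7270 of 15540 genes. With the GC trend removed 1078 genes were called higher and 2053 lower, and the median of all genes was -0.56, a shift of -0.67. Markers of other cells moved with this comparison: 14 of 14 rod markers were lower and 13 of 14 tested oligodendrocyte markers higher in SC. Rod markers summed to 140.2 to 676 CPM in SC and 15633 to 133866 in immunopanned EU, and oligodendrocyte markers to 9515 to 12486 and 26.3 to 141 CPM. Of 15 immediate early genes tested, a class induced quickly by stimulation, 8 were lower in SC (10 with the GC trend removed), with 102 to 188 against 752 to 3087 CPM in sum, and 3 of 10 astrocyte markers were higher. RGC markers summed to 2989 to 4741 TPM over all wild-type P14 SC EU libraries and to 146 to 436 TPM in immunopanned EU. They were thus lower in the preparation called soma. The part of these genes in the result was not tested.

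In the ER, Hspa5 had 14.2, 6.10 and 59.9 CPM in SC and 527, 692 and 813 CPM in soma (log2 fold change -4.66 ± 0.89 SE, adjusted p = 0.00882). Hsp90b1 had 14.4, 24.6 and 65.4 CPM in SC and 487, 637 and 578 CPM in soma (log2 fold change -4.03 ± 0.68 SE, adjusted p = 0.00592). For both, every SC library lay below every somatic library, and they were called lower with the GC trend removed as well (-4.43 and -3.01). Among mitochondrial members, Hspd1 had 5.24, 4.63 and 35.1 against 135, 177 and 83.3 CPM (log2 fold change -3.14 ± 0.88 SE, adjusted p = 0.0322), and Hspa9 3.68, 3.42 and 27.2 against 181, 72.4 and 64.5 CPM (log2 fold change -3.21 ± 0.96 SE, adjusted p = 0.0393). Neither overlapped, and with the GC trend removed they were -3.18 and -2.95, both called. With all 5 P14 libraries, in which 5 members and 3742 of 17003 genes were called, Hspa9 was -1.21 and Hspd1 -1.52, neither called. Hspe1, the partner of Hspd1, had 43.4, 73.7 and 45.3 CPM in SC and 17.5, 103 and 211 in soma and was not called (log2 fold change -1.03 ± 0.79 SE, adjusted p = 0.39). Its immunopanned EU values lay on both sides of the SC EU ones.

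In the cytosol, Dnaja1 had 18.1, 10.4 and 29.1 CPM in SC and 313, 445 and 479 in soma (log2 fold change -4.43 ± 0.60 SE, adjusted p = 0.00308), and -2.93 with the GC trend removed. Its fellow J-domain gene Dnajb1 had 105, 105 and 52.8 against 117, 114 and 212 CPM and was not called (log2 fold change -0.75 ± 0.52 SE, adjusted p = 0.343), but was called with the GC trend removed (-2.07, adjusted p = 0.0385). Hsp90ab1 had 2216, 3522 and 2052 CPM in SC and 308, 500.1 and 606 in soma (log2 fold change 2.46 ± 0.54 SE, adjusted p = 0.0147). Hsp90aa1 had 499.8, 657 and 1246 against 4514, 2732 and 2262 CPM (log2 fold change -1.98 ± 0.58 SE, adjusted p = 0.0375). Their groups did not overlap, in opposite directions, yet neither was called with the GC trend removed (1.48, adjusted p = 0.112, and -0.79, adjusted p = 0.309). Hspa8, at 2099, 2791 and 2318 against 1915, 1666 and 1829 CPM, was not called (log2 fold change 0.41 ± 0.47 SE, adjusted p = 0.573), although its libraries did not overlap. Against the shifted median of all genes, the values with the GC trend removed were 2.04 for Hsp90ab1, -0.23 for Hsp90aa1, -1.52 for Dnajb1 and 0.03 for Hspa8.

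Other soma groups gave other values. Against FACS cells 8 members were called, where 3205 and 2863 of 17111 genes were higher and lower: Hspa8 (1.84), Hsp90ab1 (2.90) and Hspe1 (2.58) higher in SC, and Hspa5 (-2.56), Hspa9 (-2.66), Hsp90aa1 (-1.84), Hsp90b1 (-2.69) and Dnaja1 (-1.87) lower. Against immunopanned RGC without EU no member was called, and without the replicate 1 that stood apart 7 were, all lower, beside 3692 and 3463 of 16708 genes higher and lower, with Hsp90ab1 at -0.13 and not called. Hspa8 was among the 7 (-2.53), so its direction between axon and soma differed with the soma group. Hspa5, Hspa9, Hsp90aa1, Hsp90b1 and Dnaja1 were called lower in SC against all 3 of these soma groups once that replicate was left out. For Hsp90aa1 this depends on the use of counts. Its median TPM over the 5 P14 SC EU libraries, 2277, lay above immunopanned EU (532) and immunopanned RGC without EU (544), and below FACS cells (3585). All share the P14 SC EU libraries. Of the 6 fits that leave out 1 library, Hspa5 was called in 6, Hsp90b1 in 6, Dnaja1 in 6, Hsp90ab1 in 4, Hspd1 in 2, Hspa9 in 2 and Hsp90aa1 in 1. The lowest counts were 3 members without SC EU replicate 3 or replicate 4 (Hspa5, Hsp90b1 and Dnaja1) and 4 without immunopanned EU replicate 2.

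Other folding genes were read from lists, each given with its median log2 fold change, against 0.11 over all genes, and its calls with the GC trend removed. Of the 14 genes of the cytosolic chaperonin TRiC and its helper prefoldin, 4 were lower and none higher in SC (median -0.72, then 0 higher and 5 lower). Cct4 fell by 6.63 (3.45 ± 1.63 against 343 ± 48.6 CPM, SD, n = 3 each), Vbp1 fell by 5.56 and Tcp1 fell by 4.26 on the log2 scale. Of 21 ER folding genes 5 were lower and none higher (median -0.37, then 0 higher and 5 lower), among them the disulfide isomerase Pdia3 (-4.11), the lectin chaperone calnexin, Canx (-4.51), and the oxidase Ero1l (-3.67). Of 15 other J-domain genes 4 were lower and 1 higher (median -0.68, then 0 higher and 2 lower), with Dnaja2 (-3.53), Dnajb6 (-2.67) and Dnajb12 (4.63) first. Of 13 mitochondrial import and folding genes 4 were lower and 1 higher (median -0.46, then 0 higher and 2 lower), with Tomm70a (-3.83), Tomm20 (-2.41) and Clpx (-4.96) first. Of 21 cochaperones Ppid (-4.09) and Sugt1 (-2.08) were lower and none higher (median -0.24, then 0 higher and 2 lower). In 3 further lists 1 gene was lower: Hspa4l (-3.80) of 9 other Hsp70 and Hsp110 genes tested, Hspb6 (-3.96) of 5 small heat shock proteins, and Atf3 (-7.04) of 11 regulators of the unfolded protein response. Of 4 heat shock factors, Hsf4 was called higher, from 0 CPM in all somatic libraries to 0.931 ± 0.237 CPM, and with the GC trend removed none was.

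**Figure D4:**
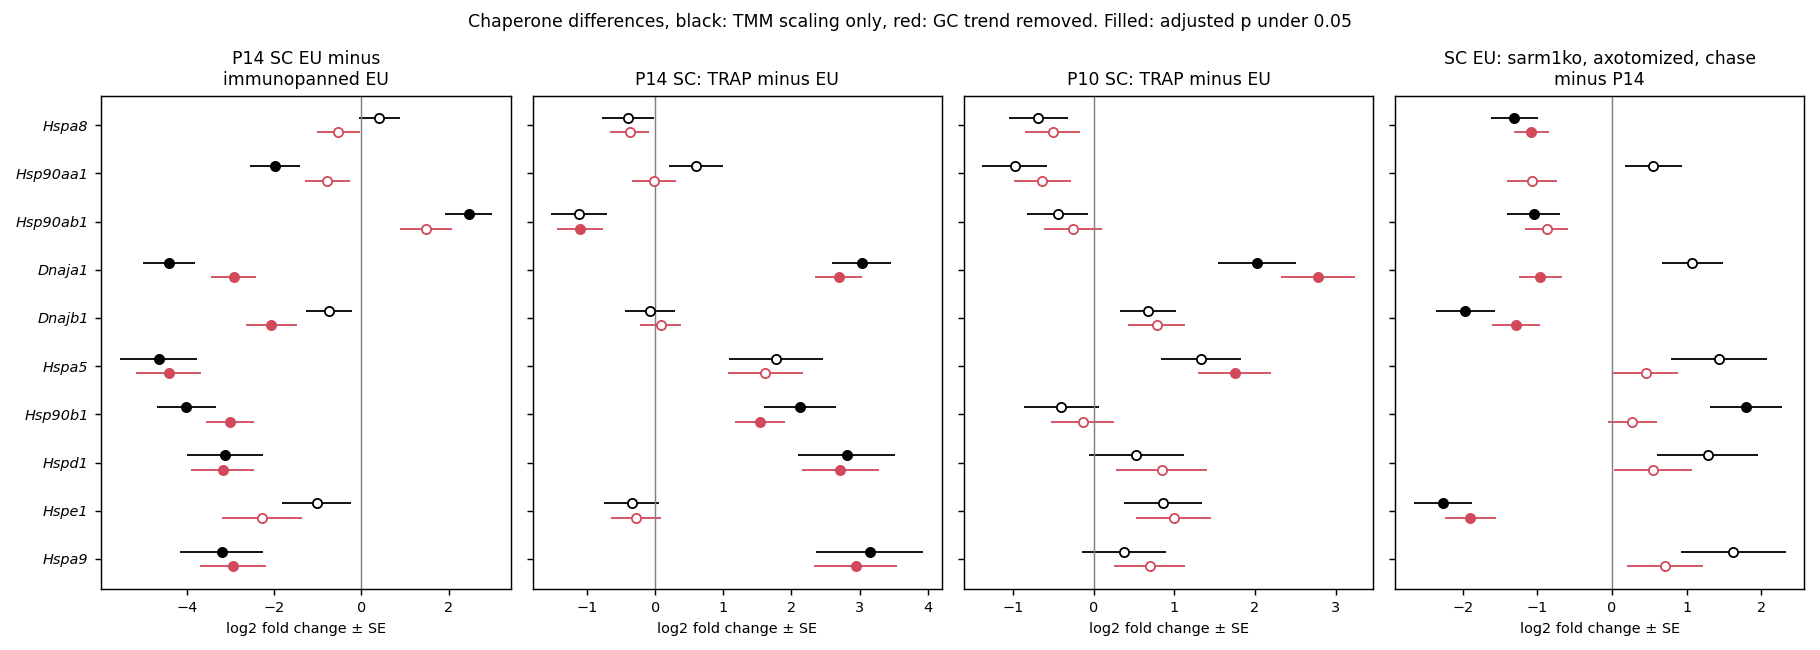
Log2 fold changes ± SE of the 10 chaperones in 4 comparisons of 3 against 3 libraries, with TMM scaling only (black) and with the GC trend removed (red); filled points have an adjusted p under 0.05. Hspa5, Hsp90b1, Dnaja1, Hspd1 and Hspa9 are filled in both colours at the left, and Dnaja1 is filled in both colours in the 2 TRAP panels.

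Ribosome-bound against EU-labelled RNA was compared as TRAP against EU in P14 SC (n = 3 each). Dnaja1, the mitochondrial Hspa9 and Hspd1, and Hsp90b1 of the ER were higher in TRAP. Thus 4 members were called higher and none lower, where 5.73% and 8.64% of 16277 genes were. The median was 1.19 over the members and -0.01 over all genes. Dnaja1 had 273, 210.3 and 188 CPM in TRAP and 26.3, 15.3 and 40.6 in EU (log2 fold change 3.03 ± 0.43 SE, adjusted p = 0.00372). Hspa9 had 225, 75.6 and 128 against 5.34, 5.02 and 38.0 CPM (log2 fold change 3.15 ± 0.79 SE, adjusted p = 0.0244). Hspd1 had 177, 106 and 161 against 7.61, 6.81 and 48.9 CPM (log2 fold change 2.81 ± 0.71 SE, adjusted p = 0.0257), and Hsp90b1 259, 139 and 249 against 20.9, 36.1 and 91.3 CPM (log2 fold change 2.12 ± 0.53 SE, adjusted p = 0.0247). None of the 4 overlapped, as held for 6054 of 16277 genes, and EU replicate 5 was the nearest to TRAP in each. With the GC trend removed all 4 were called (2.69, 2.95, 2.72 and 1.54).

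The other 6 members were not called. Hspa5 had 77.4, 156 and 154 CPM in TRAP and 20.7, 8.96 and 83.6 in EU (log2 fold change 1.77 ± 0.69 SE, adjusted p = 0.108), with an overlap at EU replicate 5. Hsp90ab1 had 1263, 1998 and 1926 against 3221, 5179 and 2862 CPM without overlap (log2 fold change -1.12 ± 0.41 SE, adjusted p = 0.0895), and was called lower with the GC trend removed (-1.11, adjusted p = 0.0471). Hspa8, Hsp90aa1, Dnajb1 and Hspe1 had log2 fold changes of -0.40, 0.60, -0.08 and -0.34, all with overlapping libraries. The calls depended on the libraries used. With all 5 libraries of each capture no member was called, and Dnaja1, Hspa9, Hspd1 and Hsp90b1 were 1.23, 1.03, 1.14 and 0.54. Of the 6 fits that leave out 1 library, Dnaja1 was called in 6, Hspa9 in 3, Hspd1 in 1 and Hsp90b1 in 2. Without EU replicate 3, TRAP replicate 3 or TRAP replicate 5 Dnaja1 was the 1 member called, without EU replicate 4 it was called with Hspa9, and without EU replicate 5 there were 7 calls. In that last fit 4097 of 17130 genes were called, 2180 higher and 1917 lower. Of 12 microglia markers, 3 were higher in TRAP, and they summed to 758 to 1287 CPM in TRAP and 365 to 514 in EU; their part was not tested.

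Genes related in function were counted from the same lists. Of 14 TRiC and prefoldin genes Cct4 (4.23), Cct8 (3.82) and Tcp1 (2.15) were higher and none lower (median 0.48, with the GC trend removed 4 higher and 0 lower). Cct4, for example, had 93.4 ± 36.2 against 4.96 ± 2.34 CPM (SD, n = 3 each). Of 21 ER folding genes Pdia3 (2.44), Dnajb11 (1.59), the J-domain partner of Hspa5, and Canx (2.58) were higher and none lower (median 0.66, then 3 higher and 0 lower). Tomm20 (1.63) and Tomm70a (2.37), receptors of the mitochondrial outer membrane, were higher among 13 mitochondrial genes (median 0.75, then 3 higher and 0 lower). Dnaja2 (2.47) of 15 J-domain genes, the Hsp90 cochaperone p23, Ptges3 (1.50), of 21 cochaperones, and Hspb8 (2.06) of 7 small heat shock proteins tested were the others called. No gene of these 9 lists was called lower here. This comparison shares the P14 SC EU libraries with that of axon and soma, so opposite signs in the 2 are not independent.

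At P10 the same captures (n = 3 each) gave 1 member called higher and none lower, where 6.38% and 11.1% of 15733 genes were called. With the GC trend removed 1484 genes were called higher and 1558 lower, and the median of all genes moved by 0.15 to 0.08. That member was Dnaja1, at 235, 115 and 108 CPM in TRAP and 18.9, 41.8 and 52.2 in EU (log2 fold change 2.02 ± 0.48 SE, adjusted p = 0.0172). The groups did not overlap, as held for 6126 of 15733 genes, and with the GC trend removed it was 2.78 (adjusted p = 0.00433). Without SC EU replicate 1 or replicate 2 it was not called (1.71 and 2.25), without TRAP replicate 3 Hspa5 was called beside it (1.80), and without TRAP replicate 1 Hspe1 was. Hspa5 came next, at 148, 73.3 and 46.4 against 21.1, 34.2 and 51.1 CPM (log2 fold change 1.33 ± 0.50 SE, adjusted p = 0.093), and was called with the GC trend removed (1.75, adjusted p = 0.0234). Hsp90aa1 had 1485, 1856 and 1028 against 3098, 2243 and 3247 CPM, without overlap (log2 fold change -0.98 ± 0.40 SE, adjusted p = 0.121). It was -0.63 with the GC trend removed. Hspa9, Hspd1 and Hsp90b1, called at P14, were 0.38 ± 0.52, 0.53 ± 0.59 and -0.40 ± 0.46 SE here. Microglia markers, 4 of 12 higher in TRAP, summed to 712 to 1094 CPM in TRAP and 370.0 to 427 in EU, and their part was not tested.

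The difference between ages of the TRAP to EU ratio was tested as an interaction, in which no member and 0% of 18660 genes were called. Its values for Hspa9 and Hsp90b1, the largest, were 2.74 ± 1.01 and 2.48 ± 0.75 SE (adjusted p = 0.399 and 0.362), and 4 members and 2051 genes had an unadjusted p under 0.05 in edgeR, while DESeq2 called 162 genes and no member. After GC correction they were 2.25 and 1.72. Without P14 EU replicate 5, Hspa9 (4.29) and Hsp90b1 (3.19) were called, where 143 of 19794 genes were. Around Dnaja1 at P10, of 21 cochaperones Ptges3 (3.84), Ppid (2.45) and St13 (2.45) led 5 that were higher in TRAP, and none was lower (median 0.84, with the GC trend removed 5 higher and 0 lower). Of 21 ER folding genes 5 were higher, with Pdia3 (2.99) and Canx (3.99) first, and Hyou1 was lower (-5.19) (median 0.72, then 8 higher and 1 lower). Of 14 TRiC and prefoldin genes Cct4 (1.63) and Cct8 (1.59) were higher and Pfdn2 lower (-1.93) (median -0.06, then 4 higher and 1 lower). Tomm20 (2.07), Dnajc19 (1.80), Dnajc2 (1.80) and Hspb1 (1.73) were higher too, 2, 1 and 1 of 13 mitochondrial, 15 J-domain and 6 small heat shock genes tested.

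In sarm1ko axotomized SC after the 7-day chase (n = 3), against wild-type P14 SC EU (n = 3), Hspa8, Hsp90ab1, Dnajb1 and Hspe1 were lower and Hsp90b1 was higher. Thus 1 member was called higher and 4 lower, where 16.8% and 20.8% of 17171 genes were. With the GC trend removed 938 genes were called higher and 1763 lower, and the median of all genes moved by -0.17 to -0.01. Sarm1, which encodes an enzyme that drives loss of cut axons, was listed at 0.795 to 7.63 TPM in these libraries and 4.80 to 39.6 in the 5 wild-type ones, ranges that overlap. Dnajb1 had 15.6, 29.6 and 23.4 CPM in sarm1ko and 108, 110.0 and 50.8 in wild type (log2 fold change -1.97 ± 0.40 SE, adjusted p = 0.00543). Hspe1 had 11.4, 14.4 and 8.31 against 44.5, 76.9 and 43.5 CPM (log2 fold change -2.27 ± 0.39 SE, adjusted p = 0.0032). Hspa8 had 869, 1129 and 939 against 2150.3, 2910.2 and 2228 CPM (log2 fold change -1.31 ± 0.32 SE, adjusted p = 0.0107). In all 3 every sarm1ko library lay below wild-type replicates 3 to 5, and all 3 were called with the GC trend removed (-1.29, -1.90 and -1.08). Such a lack of overlap, in either direction, held for 9924 of 17171 genes. With all 5 wild-type libraries, TPM of Hspe1 overlapped (13.2 to 66.9 in sarm1ko, 33.2 to 252 in wild type).

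The other calls changed with the GC trend. Hsp90ab1, at 1337, 1389 and 1096 against 2271, 3673 and 1973 CPM (log2 fold change -1.05 ± 0.35 SE, adjusted p = 0.038), was then -0.88 and not called (adjusted p = 0.0669). Hsp90b1, at 134, 112 and 112 against 14.7, 25.6 and 62.9 CPM (log2 fold change 1.80 ± 0.48 SE, adjusted p = 0.0158), was then 0.27 and not called (adjusted p = 0.604). Dnaja1 turned from 1.08 ± 0.41 SE, not called, to -0.96 and called lower (adjusted p = 0.0467), and Hsp90aa1 from 0.55 ± 0.38 SE to -1.07, not called in either fit (adjusted p = 0.0542 in the latter). Hspa9 and Hspa5 were not called in either fit (1.63 ± 0.70 and 1.43 ± 0.64 SE, adjusted p = 0.0892 and 0.0995), although their sarm1ko libraries lay above wild-type replicates 3 to 5 in CPM. In TPM with all 5 wild-type libraries both genes overlapped, Hspa9 at 7.06 to 17.9 in sarm1ko and 2.17 to 179 in wild type. With all 5 wild-type libraries no member was called; Dnajb1 was then -1.64, Hspe1 -1.80, Hspa8 -1.08 and Hsp90b1 0.54. Of the 6 fits that leave out 1 library, Dnajb1 was called in 6, Hspe1 in 6, Hspa8 in 4, Hsp90b1 in 3 and Hsp90ab1 in 1. Dnajb1 and Hspe1 were the 2 called without sarm1ko replicate 1 or 3, Hspa8 joined them without wild-type replicate 3, and all 10 members were called without wild-type replicate 5, where 5631 and 4745 of 18369 genes were higher and lower.

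Beside the members, 11 of 21 cochaperones were lower and 1 higher in sarm1ko (median -0.92, against 0.16 over all genes; with the GC trend removed 1 higher and 7 lower), with Stub1 (-1.92), Bag6 (-1.82) and Cdc37 (-1.51) first. Stub1 is a ubiquitin ligase that binds Hsp70, and Cdc37 brings kinases to Hsp90. Of 21 ER folding genes 9 were lower and 3 higher (median 0.05, then 1 higher and 7 lower), with Sdf2l1 (-2.91), Hyou1 (2.03) and Manf (-1.80) first. Of 11 regulators of the unfolded protein response 5 were lower and none higher (median -0.53, then 1 higher and 0 lower), among them Atf4 (-1.58), Ppp1r15a (-2.35) and Chac1 (-2.62). Of 13 mitochondrial genes 6 were lower and 1 higher (median -0.89, then 0 higher and 4 lower), with the proteases Lonp1 (-1.98) and Clpp (-1.66) and the mitochondrial Hsp90 Trap1 (-1.75) first. Of 14 TRiC and prefoldin genes 4 were lower and 1 higher (median -0.08, then 0 higher and 2 lower), with Pfdn6 (-2.17), Cct7 (-1.38) and Cct4 (2.08) first. The Hsp110 gene Hsph1 (2.88), Hspa4l (2.32) and Hspa13 (2.72) were higher among 9 tested and none was lower (median 1.23, then 1 higher and 0 lower). Of 15 J-domain genes 4 were lower and 2 higher (median 0.32, then 0 higher and 1 lower), with Dnajb14 (2.09), Dnajb12 (-2.07) and Dnajc8 (-1.42) first. Hspb1 (-4.34) of 5 small heat shock proteins was lower (then 1 higher and 1 lower), as were Hsf1 (-1.56) and Hsbp1 (-1.36), a binding partner of heat shock factors, of 4 genes (then 0 higher and 1 lower).

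Cell markers moved with this comparison. RGC markers, 4 of 13 tested lower and none higher, summed to 1008 to 1238 CPM in sarm1ko and 1905 to 2557 in wild type. Microglia markers, 5 of 12 lower and none higher, summed to 140.1 to 257 and 252 to 365 CPM, and oligodendrocyte markers, 7 of 15 lower and 3 higher, to 8695 to 10591 and 9148 to 13021 CPM. Endothelial markers were lower in 5 of 10 and higher in 1, and of 14 immediate early genes tested 3 were lower and 1 higher, summing to 66.6 to 81.3 and 97.8 to 195 CPM. The GC correlation was -0.17, -0.09 and -0.19 in the sarm1ko libraries. The part of these in the changes of the chaperones was not tested beyond the fit with the GC trend removed.

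With age, no member was called. In SC EU, P14 against P10 (n = 3 each), edgeR called 2.03% of 16262 genes and no member. An unadjusted p under 0.05 was reached by 2982 genes and 4 members, and DESeq2 called 1381 genes and 2 members. Hspd1 and Hspa9 had the largest differences. Hspd1 had 7.29, 6.64 and 48.5 CPM at P14 and 74.4, 75.5 and 67.7 at P10 (log2 fold change -1.80 ± 0.66 SE, adjusted p = 0.176), and Hspa9 5.11, 4.90 and 37.7 against 31.5, 45.6 and 53.7 CPM (log2 fold change -1.46 ± 0.71 SE, adjusted p = 0.306). P14 replicates 3 and 4 lay below replicate 5 and all P10 libraries in both genes. Without P14 replicate 5, 5 members were called, Hspd1 (-3.37), Hspa9 (-3.11), Hsp90b1 (-2.01) and Hsp90aa1 (-1.74) lower and Dnajb1 (1.33) higher, where 2092 of 16664 genes were called. With the GC trend removed Hspd1 was -1.81 and Hspa9 -1.40, and with all 5 P14 libraries Hspd1 was -0.28 and Hspa9 0.47. Hsp90aa1 was -1.30 ± 0.38 and Dnajb1 1.06 ± 0.34 SE (adjusted p = 0.099 and 0.129), without overlap, as held for 4176 of 16262 genes. Elsewhere in the lists Cct4 was lower (-2.56), 1 of 14, and the small heat shock protein Cryab higher (1.72), 1 of 5, at P14. After GC correction Hsp90aa1 was -0.81 and Dnajb1 0.86, neither called. In the same libraries 6 of 15 oligodendrocyte markers were higher, and they summed to 13167 to 17907 CPM at P14 and 2198 to 3169 at P10.

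In SC TRAP, P14 against P10 (n = 3 each), 0% of 15752 genes were called in edgeR, and no member; 2275 genes and 2 members had an unadjusted p under 0.05, and DESeq2 called 761 genes and 1 member. Hspe1 had the largest difference, at 80.9, 64.1 and 36.9 CPM at P14 and 91.0, 285 and 358 at P10 (log2 fold change -2.01 ± 0.54 SE, adjusted p = 0.164). The groups did not overlap, as held for 3463 of 15752 genes, and without P10 replicate 1 it was called (-2.41, adjusted p = 0.0399). Hsp90b1 had 252, 137 and 246 against 139, 110.2 and 36.5 CPM (log2 fold change 1.16 ± 0.51 SE, adjusted p = 0.337), with an overlap at P10 replicate 1. Removing the GC trend gave -2.06 and 0.89, neither called. The other 8 members lay between -0.40 and 1.14.

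At 8 weeks against P14 in SC EU (n = 3 each), 0% of 16942 genes were called in edgeR, and no member; 1548 genes and 3 members had an unadjusted p under 0.05, and DESeq2 called 803 genes and no member. The 2 largest differences were those of Hspa9, 166, 126 and 5.20 CPM at 8 weeks against 4.63, 4.46 and 34.5 at P14 (log2 fold change 2.77 ± 1.19 SE, adjusted p = 0.532), and Dnaja1, 211, 212 and 9.05 against 22.8, 13.5 and 36.9 CPM (log2 fold change 2.56 ± 0.98 SE, adjusted p = 0.477). In both, 8-week replicates 1 and 2 lay above all P14 libraries and replicate 3 lay among them for Hspa9 and below them for Dnaja1. After removal of the GC trend Hspa9 was 1.89 and Dnaja1 0.57, and the largest differences were then those of Hspa9 and Hspd1 (1.64), none called. Without that replicate, whose GC correlation was 0.42 against -0.17 and -0.35, 4 members were called higher, beside 1778 of 18734 genes: Hspa9 (3.34), Dnaja1 (3.11), Hspd1 (2.89) and Hsp90b1 (2.86).

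The 4-day chase after labelling at P10 was compared with P10 (n = 3 each). Of 16746 genes edgeR called 0.00597%, and no member. An unadjusted p under 0.05 was reached by 3030 genes and 3 members, and DESeq2 called 939 genes and 1 member, Hspe1. Hspe1 had 58.2, 71.0 and 72.5 CPM after the chase and 155, 168 and 101 before (log2 fold change -1.07 ± 0.29 SE, adjusted p = 0.157), without overlap, as held for 4295 of 16746 genes. Dnaja1 had 190.4, 93.4 and 46.4 against 21.1, 47.9 and 58.4 CPM (log2 fold change 1.37 ± 0.51 SE, adjusted p = 0.211), with an overlap. Hspe1 was -0.98 and Dnaja1 0.49 with the GC trend removed, neither called. Age at collection and chase cannot be told apart here.

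Libraries labelled fmr1ko were compared with wild type in 3 preparations (n = 3 each), with no member called in any. In SC EU edgeR called 1.11% of 16546 genes and no member. An unadjusted p under 0.05 was reached by 3912 genes and 5 members, and DESeq2 called 2360 genes and 5 members. Hspd1 had 130.2, 144 and 93.2 CPM under the label and 6.50, 5.95 and 43.1 in wild type (log2 fold change 2.73 ± 0.73 SE, adjusted p = 0.0813), and Dnaja1 63.3, 227 and 35.4 against 22.5, 13.3 and 35.7 CPM (log2 fold change 2.19 ± 0.67 SE, adjusted p = 0.105). Hspd1 did not overlap, as held for 5316 of 16546 genes. Fitted without the GC trend they were 2.35 (adjusted p = 0.0578) and 1.13 (adjusted p = 0.208). Without wild-type replicate 5, 5 members were called higher, Hspd1 (4.29), Hspa9 (3.71), Hspa5 (3.41), Hsp90b1 (2.73) and Dnaja1 (2.60), where 2252 of 17572 genes were. With all 5 wild-type libraries Hspd1 was 1.16. Of the other folding lists, only that of TRiC and prefoldin had a call, Tcp1 (2.61), 1 of 14.

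In SC TRAP 0% of 16115 genes were called, with 2879 at an unadjusted p under 0.05 and 2435 called by DESeq2; edgeR called no member, with 3 at an unadjusted p under 0.05, and DESeq2 called 2. Dnaja1 had 36.0, 90.4 and 105 CPM under the label and 305, 237 and 208 in wild type (log2 fold change -1.70 ± 0.54 SE, adjusted p = 0.154). Hspe1 had 26.7, 12.8 and 28.3 against 92.9, 72.8 and 41.3 CPM (log2 fold change -1.61 ± 0.57 SE, adjusted p = 0.194). Neither overlapped, as held for 4738 of 16115 genes, and with the GC trend removed they were -2.52 and -0.95, neither called. Without replicate 2 of the fmr1ko label, the library that went against it, Hspa8 (-1.53, adjusted p = 0.0472) and Hsp90b1 (-2.94, adjusted p = 0.0438) were called lower and Dnaja1 was -1.86 (adjusted p = 0.0564). In that fit 2226 of 17261 genes were called, 1053 higher and 1173 lower. In FACS cells edgeR called 0.0593% of 15165 genes and no member. An unadjusted p under 0.05 was reached by 1932 genes and 5 members, and DESeq2 called 1097 genes and 1 member. Hspe1 had 47.7, 33.5 and 41.1 CPM under the label and 15.1, 7.87 and 13.6 in wild type (log2 fold change 1.74 ± 0.44 SE, adjusted p = 0.131), the reverse of its direction in TRAP. Hspa9 had 63.7, 20.6 and 49.7 against 105, 89.1 and 95.1 CPM (log2 fold change -1.11 ± 0.41 SE, adjusted p = 0.297). Neither overlapped, as held for 3384 of 15165 genes, and with the GC trend removed they were 1.80 and -0.82, neither called.

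In LGN, TRAP (n = 3) against EU (n = 2) gave 1.40% of 16561 genes called in edgeR, 39 higher and 193 lower (259 and 480 with the GC trend removed), and no member. An unadjusted p under 0.05 was reached by 4545 genes and 1 member, and DESeq2 called 3397 genes and no member. Hspe1 had 86.0, 45.0 and 139 CPM in TRAP and 16.4 and 31.5 in EU, without overlap (log2 fold change 1.91 ± 0.80 SE, adjusted p = 0.155), and Hsp90b1 38.5, 198 and 5.58 against 388 and 118 (log2 fold change -1.65 ± 1.11 SE, adjusted p = 0.367). A lack of overlap held for 8644 of 16561 genes. Of the 4 members called higher in TRAP in P14 SC, the other 3 were Dnaja1 -1.44, Hspa9 -1.19 and Hspd1 -0.90 here, and with the GC trend removed all 3 turned sign, to 1.38, 0.48 and 0.12, so their direction in LGN depends on that step. Hspe1 and Hsp90b1 were then 2.20 and -0.23, no member was called in either fit, and the median of all genes moved by 0.28 to 0.04. The difference between the regions was not tested. Hspb1 was the 1 gene called higher of 6 small heat shock proteins (5.16). Between the 2 targets, SC against LGN, no gene was called, 0% of 15448 in EU (n = 2 each, 497 at an unadjusted p under 0.05) and 0% of 15551 in TRAP (n = 2 and 3, 412 at an unadjusted p under 0.05), and no member had an unadjusted p under 0.05 in either. DESeq2 called 67 and 66 genes and no member. These fits did not pair SC and LGN libraries of the same number, whose correlations are given below. Hspa5 (1.17 ± 0.75 SE) and Hsp90aa1 (-0.47 ± 0.77 SE) had the largest differences in EU, and Hspe1 (-0.80 ± 0.66 SE) and Hspd1 (0.65 ± 0.78 SE) in TRAP. Removing the GC trend made these 1.42, -0.07, -1.09 and 0.78, none called. No gene of the 9 folding lists was called in these 2 comparisons, nor with age in TRAP, at 8 weeks, after the chase or under the fmr1ko label in TRAP and FACS cells.

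Over the 15 group means of log2(TPM + 1), members varied together to different degrees, as a description over groups that share capture and base composition. Hspa9 and Hspd1 had the highest Pearson correlation (0.89), followed by Hspa8 and Hsp90ab1 (0.86). Hspa5 and Hsp90b1, which share the ER element printed above, had 0.70, and Hspd1 and Hspe1, which lie head to head, 0.51. Among the 6 lower-GC members the median was 0.51 over 15 pairs, among the 4 higher-GC members 0.67 over 6 pairs, and between the sets 0.35 over 24 pairs. Of other genes with a mean TPM of at least 10, those most like Hspa8 were Lpcat3 (0.94), Rrbp1 (0.93) and Anxa6 (0.93). Most like Hspa5 were Zfand6 (0.88), C1galt1c1 (0.87) and Cd164 (0.87), and most like Hspd1 were Atxn10 (0.94), Cers5 (0.93) and Atp6ap1 (0.92). The 3 genes most like Hspa5 have 39.1 to 41.6% GC and those most like Hspa8 52.1 to 56.8%. Those most like Hspd1, itself at 46.8%, have 47.9 to 51.2%.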

How the data were processed

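The deposited tables hold, for 54331 mouse genes and 48 libraries, estimated counts and TPM, which the authors made with Salmon on mm10, per the submitters' processing notes; its version and settings, strand handling included, are not stated there. Ensembl identifiers were matched to symbols for 54097 genes. Estimated counts were rounded, filtered with filterByExpr, scaled by TMM and tested two-sided with edgeR 4.0.16 (R 4.3.3) in 14 comparisons and 1 interaction, each on its own libraries. Deposited TPM values are used for levels, as log2(TPM + 1) where a log is taken. A lowess trend on transcript GC content (span 0.3) was removed from each library in a further fit, which was chosen after seeing the data, as were a fit that also removed a length trend and the use of immunopanned replicates 2 and 3 without EU as soma. Results were also computed with RLE scaling, no filter, DESeq2 1.42.0, limma 3.58.1 on log2(TPM + 1), a replicate block, FACS or immunopanned cells without EU as soma, all 5 P14 libraries, leaving out CT010467.1 with mitochondrially encoded genes, and leaving out each library. The tests were also tested on simulated data. Members and lists were chosen with earlier results of these data known. Named are all 10 members by group, and in each comparison those called and the 2 with the largest difference among the rest, up to 3 called genes a list, and the 3 genes most like Hspa8, Hspa5 and Hspd1; other members were named after their values were seen. Titles carry a library number. In comparisons with 3 pairs, same-numbered libraries did not consistently deviate together: none had every correlation above 0.1. In SC against LGN, with 2 pairs, correlations were positive, 0.33 in EU and 0.31 to 0.38 in TRAP, and the main fits did not pair these libraries.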

Additional observations from a re-analysis of the deposited data

Results flagged for a closer look

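In groups of 5 libraries, 3 member levels had a library far from the other 4 by Dixon's test at the 95% level, of 20 gene and group combinations examined, where chance flags about 1 in 20. Hspa8 was lowest in wild-type P14 SC TRAP replicate 2, at 383 TPM. Hspa5 and Hspa9 were highest in wild-type P14 SC EU replicate 1, at 274 and 179 TPM. That library is used in the comparison of SC with LGN and in the fits with all 5 libraries. Its GC correlation was -0.12, against 0.22 to 0.43 in the other 4, and its total of 2558140 estimated counts was the lowest of the 48 libraries. Its label code is of the series of the LGN libraries. The part of these in the levels was not tested.

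Hspe1, the mitochondrial Hsp10, moved in opposite directions under the fmr1ko label. Its log2 fold change was -1.61 in SC TRAP and 1.74 in FACS cells, and in each case the libraries of the label and of wild type did not overlap. The same held for 4738 of 16115 genes in SC TRAP and 3384 of 15165 in FACS cells. Neither difference was called, and the difference between the preparations was not tested. The TRAP group includes replicate 2, whose rod markers summed to 90965 TPM.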

How the results depend on the processing

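For the members called and the 2 largest others in each comparison, 578 of 714 values under alternatives kept their direction and side of the threshold, 53 passed it newly, 73 lost it and 10 changed sign. Over all 10 members 145 of 2230 values changed sign, among them 25 of the 150 with the GC trend removed, and 5 were also called in the new direction: Hspe1 at 2.58 for axon against FACS cells, Hspa8 at -2.53 for axon against immunopanned replicates 2 and 3 without EU, and, for sarm1ko, Dnaja1 at -0.96 with the GC trend removed and Dnaja1 at -1.13 and Hsp90aa1 at -1.12 with GC and length trends removed. The number of members called, 7 for axon against soma, 4 and 1 for TRAP against EU at P14 and P10, 5 for sarm1ko and 0 elsewhere, changed with the settings below. Genes called also differed: DESeq2 called 5663 for axon against soma, 3840 for TRAP against EU at P14, 3397 in LGN, 1381 for EU P14 against P10, 939 for the chase, 2360 for EU fmr1ko and 1097 for FACS fmr1ko; with all 5 libraries 1382, 21, 1011 and 12 were called for TRAP against EU, EU P14 against P10, sarm1ko and EU fmr1ko, and 958 for TRAP fmr1ko; with the GC trend removed 699 and 352 for EU P14 against P10 and EU fmr1ko. DESeq2 also called 7937 of 17171 genes for sarm1ko and 3937 of 15733 for TRAP against EU at P10. Shares of all genes called without a filter, in limma and with the replicate block are not given here. The member counts of those fits therefore cannot be set against such a share. For members, the number called against immunopanned RGC without EU was 0 for axon against soma. With all 5 P14 libraries it was 0 for TRAP against EU and 0 for sarm1ko. Without a filter it was 2 for TRAP against EU at P10, 4 for EU P14 against P10, 1 for TRAP P14 against P10, 1 at 8 weeks, 2 for the chase, 5 for EU fmr1ko and 3 for the interaction. DESeq2 called 2 for TRAP against EU at P10, 2 for EU P14 against P10, 1 for TRAP P14 against P10, 1 for the chase, 8 for sarm1ko, 5 for EU fmr1ko, 2 for TRAP fmr1ko and 1 for FACS fmr1ko. limma called 2 for sarm1ko and 1 for EU fmr1ko. With the GC trend removed, and with GC and length trends removed, it was 2 for TRAP against EU at P10. With the replicate block it was 0 for TRAP against EU at P10, 1 for EU P14 against P10 and 9 for sarm1ko. In these comparisons same-numbered libraries did not consistently deviate together. In SC against LGN their correlations were positive (0.33 in EU, 0.31 to 0.38 in TRAP), and the main fits there did not use that pairing. No paired analysis was possible for axon against soma because the codes of the immunopanned EU libraries give no numbering shared with those of SC. Leaving out single libraries gave 3 to 6 for axon against soma, 1 to 7 for TRAP against EU at P14, 0 to 2 at P10, 0 to 5 for EU P14 against P10, 0 to 1 for TRAP P14 against P10, 0 to 4 at 8 weeks, 2 to 10 for sarm1ko, 0 to 5 for EU fmr1ko, 0 to 2 for TRAP fmr1ko and 0 to 2 for the interaction, and 0 to 0 in the other 5 comparisons. Of the 10, those for axon against soma were Hsp90aa1 at 1.22, Hspe1 at 0.72 and Dnajb1 at 0.57 in limma on TPM, Hspe1 at 2.58 and Dnajb1 at 0.20 against FACS cells, Dnajb1 at 0.27 against immunopanned RGC without EU, and Hsp90ab1 at -0.13 against its replicates 2 and 3. With all 5 libraries Hspa9 was 0.47 for EU P14 against P10 and -0.37 for sarm1ko, and Hsp90aa1 for EU SC against LGN ran from -1.04 to 0.48 when single libraries were left out, the last without LGN EU replicate 1. The cause was not tested; for Hsp90aa1 in TPM, reads implied a median of 950 bases in P14 SC EU and 3482 in immunopanned EU. With 2 or 3 libraries a group and large spreads in P14 SC EU and 8-week EU, small differences in these genes could not be detected.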
